A study of Mus musculus with 6 samples.

Results

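Integrins are cell-surface adhesion receptors built of 1 alpha and 1 beta chain, and 10 of their mouse genes are described here: Itgax, Itga1, Itga2, Itga5, Itgal, Itgam, Itgav, Itgb1, Itgb2 and Itgb3. They were taken as every array probe set whose single symbol in the platform's probe-to-gene table is 1 of these names, which gave 25 of the 45037 probe sets that are not array controls. No further probe set lists 1 of them beside another symbol. The table holds 18193 genes with a single symbol, and 14 of the others are integrin subunits that serve as the rest of the family.

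The first group was the clone titled 2D11, labelled CD8aa Tregs, on 3 arrays (replicates 1, 2 and 4). The comparison group was the line titled OvacD8, labelled OT-1 CD8aa+TCRab+ T cells, on 3 arrays (replicates 1, 2 and 3); OT-1 cells bear a transgenic T cell receptor that recognises ovalbumin. All were called T cell clones and were kept with IL-2, antigen-presenting cells and the antigen of each line, so antigen and group cannot be told apart. Strain, sex and age are not given in the sources used here, and each group may be repeats of 1 clone. Nothing says that the arrays of a group came from separate cultures, so the p-values cover the spread of these arrays, which may be technical. The comparison asks which integrin transcripts differ between the regulatory clone and the OT-1 cells.

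An integrin binds matrix or another cell outside and links to the actin cytoskeleton inside. The alpha chain largely sets the ligand, and the beta chain carries the tail on which talin and kindlin act. Alpha1 and alpha2 pair with beta1 as collagen receptors. The alphaL, alphaM and alphaX chains pair with beta2 as the leukocyte integrins LFA-1, Mac-1 and CD11c/CD18. Alpha5 pairs with beta1 as a fibronectin receptor, and alphaV pairs with beta1, beta3 and other beta chains as receptors for RGD peptides in vitronectin and fibronectin. In T cells LFA-1 serves contact with other cells, CD49a (alpha1) marks many CD8 T cells that reside in tissue, and CD11c, best known from dendritic cells, is also found on some activated CD8 T cells.

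The start regions of Itgax and Itga1, the genes that passed the test described further on, are printed beside those of their chromosomal neighbours Itgam and Itga2, which did not. Each runs from 250 bases before to 50 bases after the annotated gene start (RefSeq, GRCm38.p6), 5′ to 3′ on the gene's strand. Capitals mark matches, on either strand, to 5 short motifs: TGTGGT (RUNX), TGANTCA (AP-1), GGGCGG (GC box), GGAAGT (ETS) and GGTGTGA (T-box). No match overlapped another in these sequences.
Itgax, chr7:128129300-128129599, + strand: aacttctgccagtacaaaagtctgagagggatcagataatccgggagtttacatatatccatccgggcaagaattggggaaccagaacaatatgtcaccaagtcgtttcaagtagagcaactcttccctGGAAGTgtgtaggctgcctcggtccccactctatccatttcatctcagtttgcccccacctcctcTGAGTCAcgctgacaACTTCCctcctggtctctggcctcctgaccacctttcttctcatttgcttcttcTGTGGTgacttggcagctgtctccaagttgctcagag
Itga1, chr13:115101915-115102214, - strand: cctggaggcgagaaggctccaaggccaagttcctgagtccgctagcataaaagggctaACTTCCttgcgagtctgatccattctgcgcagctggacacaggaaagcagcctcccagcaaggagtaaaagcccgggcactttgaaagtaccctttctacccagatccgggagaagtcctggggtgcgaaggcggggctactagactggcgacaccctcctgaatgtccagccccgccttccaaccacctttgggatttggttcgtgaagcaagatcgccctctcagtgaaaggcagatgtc
Itgam, chr7:128062390-128062689, + strand: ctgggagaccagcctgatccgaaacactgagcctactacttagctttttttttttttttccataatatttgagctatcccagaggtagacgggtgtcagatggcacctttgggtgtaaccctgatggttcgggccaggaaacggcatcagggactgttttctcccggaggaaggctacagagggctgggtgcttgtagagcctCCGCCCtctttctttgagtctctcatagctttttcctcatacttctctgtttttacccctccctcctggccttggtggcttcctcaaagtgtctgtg
Itga2, chr13:114932051-114932350, - strand: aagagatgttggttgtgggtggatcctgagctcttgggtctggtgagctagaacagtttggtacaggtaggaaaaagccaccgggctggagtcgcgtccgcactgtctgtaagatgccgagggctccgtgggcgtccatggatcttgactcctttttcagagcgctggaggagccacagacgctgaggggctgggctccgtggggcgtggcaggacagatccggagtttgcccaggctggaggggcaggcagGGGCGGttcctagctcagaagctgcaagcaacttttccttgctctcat

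The Itgax window held 1 RUNX match that began at base 14 after the start, 1 AP-1 match at -56 and 2 ETS matches at -121 and -41. The Itga1 window held 1 ETS match, at -192, and no letters of the other motifs. The Itgam and Itga2 windows held 1 GC box each, at -47 and at base 3. Of 32851 windows of this length, 16.8% held the RUNX letters, 7.81% AP-1, 35.7% the GC box, 23.8% ETS and 3.98% T-box. The matches describe the letters only.

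All values are log2 signals centred on the median of the 6 arrays, so a value says how far an array lay above or below that median and never how bright a gene was. OvacD8-1 stood apart from the other OT-1 arrays: across the 29526 probe sets that ranged over at least 0.1, it correlated with OvacD8-2 and OvacD8-3 at r = 0.298 and 0.353, while those correlated at 0.855 with each other. Poly-A spike-in controls averaged -0.09 to 0.73 on the 2D11 arrays, against 0.44 on OvacD8-1 and -1.41 and -2.13 on OvacD8-2 and OvacD8-3. Integrin results are therefore also given without OvacD8-1, and from a fit that holds this division of the arrays by their controls as a term (called the control term). In that fit the group difference is the 2D11 mean minus OvacD8-1 alone. Its p-value assumes that this 1 array varies as the other 5 do, so it has no replicate check on the OT-1 side. Because levels were removed, whether T cell markers were present could not be read. Of 19 T cell marker probe sets 21.1% passed, against 4.06% of all. In 2D11, 1 was higher, of Cd8a (not without OvacD8-2). The 3 lower ones were of Cd247 and of Cd8b1, which encodes the beta chain of CD8 (-2.36 ± 0.11, SE, limma, adjusted p = 0.00142).

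Of the 25 integrin probe sets, 3 were lower in 2D11 (12.0%) and 0 were higher. They belonged to Itga1 and Itgax, and among all probe sets 4.06% passed, 2.05% lower and 2% higher (limma, adjusted p under 0.05 by Benjamini-Hochberg over all 45037). At an unadjusted p under 0.05 there were 7, all lower in 2D11 (28%, against 16% of all probe sets in either direction). The median difference of the 25 was -0.23, against 0.0076 over all probe sets. On 8 probe sets (32.0%) the groups did not overlap, all with 2D11 below, where 20.3% of all probe sets did not overlap and 8.54% had 2D11 below. A range of at least 1 over the 6 arrays was seen for 11 probe sets of 7 genes (44.0%, against 15.6% of all).

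**Figure D1:**
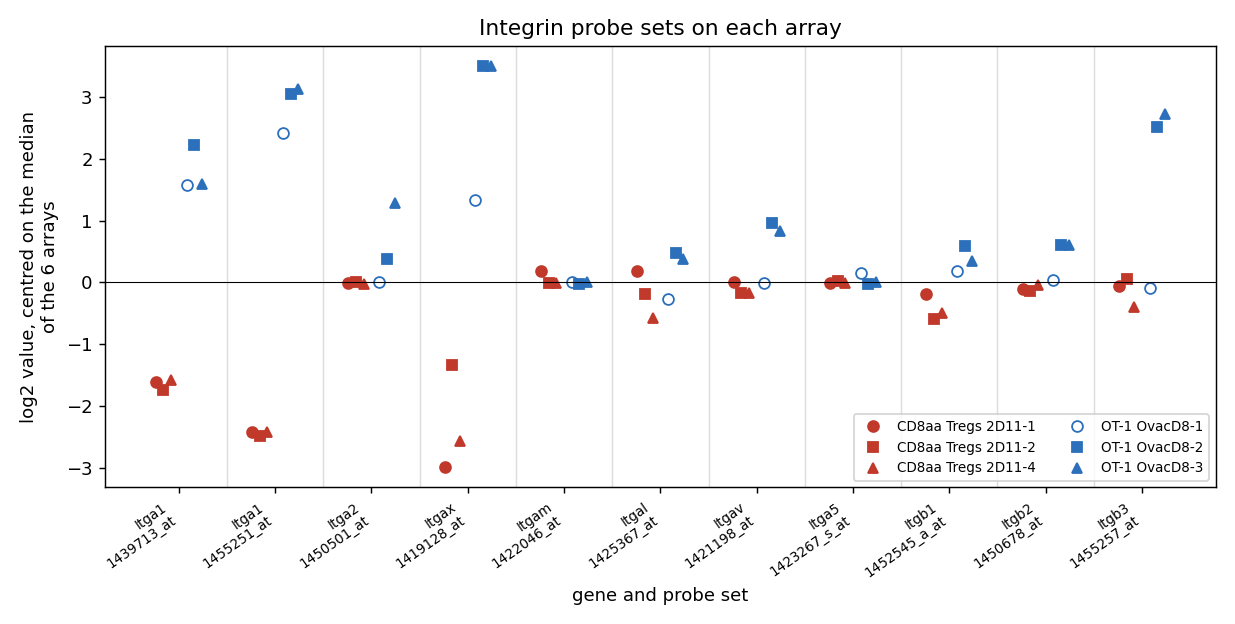
Log2 values, centred on the median of the 6 arrays, for the probe sets that passed and, for each other gene, its widest-ranging probe set; red points are CD8aa Tregs (2D11), blue points are OT-1 (OvacD8), and the open blue symbol is OvacD8-1. The Itga1 points form distant groups, the Itgax points are spread within each group, and Itgb3 is high on OvacD8-2 and OvacD8-3, at 2.52 and 2.72.

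Over all arrays, the widest difference of a single probe set among these genes lay in the collagen-binding chain alpha1. The order of Itga1 and Itgax depended on the fit. As a gene mean Itgax was wider (-5.07, against -4.37 for Itga1), and so was its probe set without OvacD8-1 (-5.79, against -5.53 for Itga1 1455251_at). Itga1 probe set 1455251_at read -2.42, -2.49 and -2.42 on the 2D11 arrays, against 2.42, 3.04 and 3.12 on the OvacD8 arrays. The 2D11 arrays lay close together (SD 0.037) and every OvacD8 array lay far above them. The log2 difference was -5.31 ± 0.20 (SE, n = 3 per group; limma, adjusted p = 0.000765), which is 39.6-fold lower in 2D11. The second probe set, 1439713_at, read -1.61, -1.73 and -1.57 in 2D11, against 1.57, 2.22 and 1.60 in OvacD8. It was also lower in 2D11 without overlap (-3.43 ± 0.20, 10.8-fold; limma, adjusted p = 0.00244). Both Itga1 probe sets passed in each of the 6 fits that left out 1 array, with adjusted p of at most 0.00992 for 1455251_at and 0.0202 for 1439713_at. With the control term, set against OvacD8-1 alone, the differences were -4.87 (adjusted p = 0.000259) and -3.21 (adjusted p = 0.0140).

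Itga2 encodes alpha2, the other collagen-binding chain of the set, and lies next to Itga1 on chromosome 13. Probe set 1450501_at read -0.016, 0.00019 and -0.017 in 2D11, against -0.00019, 0.37 and 1.28 in OvacD8. OvacD8-1 lay with the 2D11 arrays, and only OvacD8-2 and OvacD8-3 stood above them. The difference of -0.56 ± 0.35 did not pass (limma, adjusted p = 0.584), nor did it without OvacD8-1 (-0.84, adjusted p = 0.226).

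Among the leukocyte alpha chains, Itgax was the one gene that passed. Its single probe set, 1419128_at, read -2.99, -1.34 and -2.56 in 2D11, against 1.34, 3.50 and 3.50 in OvacD8. The groups did not overlap, but 2D11-2 was the highest of its group and OvacD8-1 the lowest of its own, and these lay 2.68 apart. The difference was -5.07 ± 0.79 (33.7-fold lower in 2D11; limma, adjusted p = 0.0417). Its arrays were spread widely, with an SD of 0.86 in 2D11 and 1.25 in OvacD8. The call held without OvacD8-1 (-5.79, adjusted p = 0.0122) and ended in each of the other 5 fits that left out 1 array, with adjusted p from 0.0886 to 0.150 and differences from -5.55 to -4.71. With the control term the difference was -3.63 (adjusted p = 0.0894).

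Itgam, which encodes alphaM (CD11b) and lies next to Itgax on chromosome 7, read 0.19, -0.012 and -0.0094 in 2D11, against 0.012, -0.021 and 0.0094 in OvacD8. Its probe set, 1422046_at, thus ranged over 0.21 in all, where that of Itgax ranged over 6.49. The Itgam difference was 0.056 ± 0.063 (limma, adjusted p = 0.810). Itgal, the alpha chain of LFA-1, had 2 probe sets. On 1435560_at it read -0.12, -0.026 and -0.25 in 2D11, against 0.026, 0.096 and 0.12 in OvacD8, a difference of -0.21 ± 0.065 whose groups did not overlap (adjusted p = 0.208). On 1425367_at it read 0.18, -0.18 and -0.58 in 2D11, against -0.27, 0.48 and 0.37 in OvacD8, with overlapping groups (-0.39 ± 0.29, adjusted p = 0.701).

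**Figure D2:**
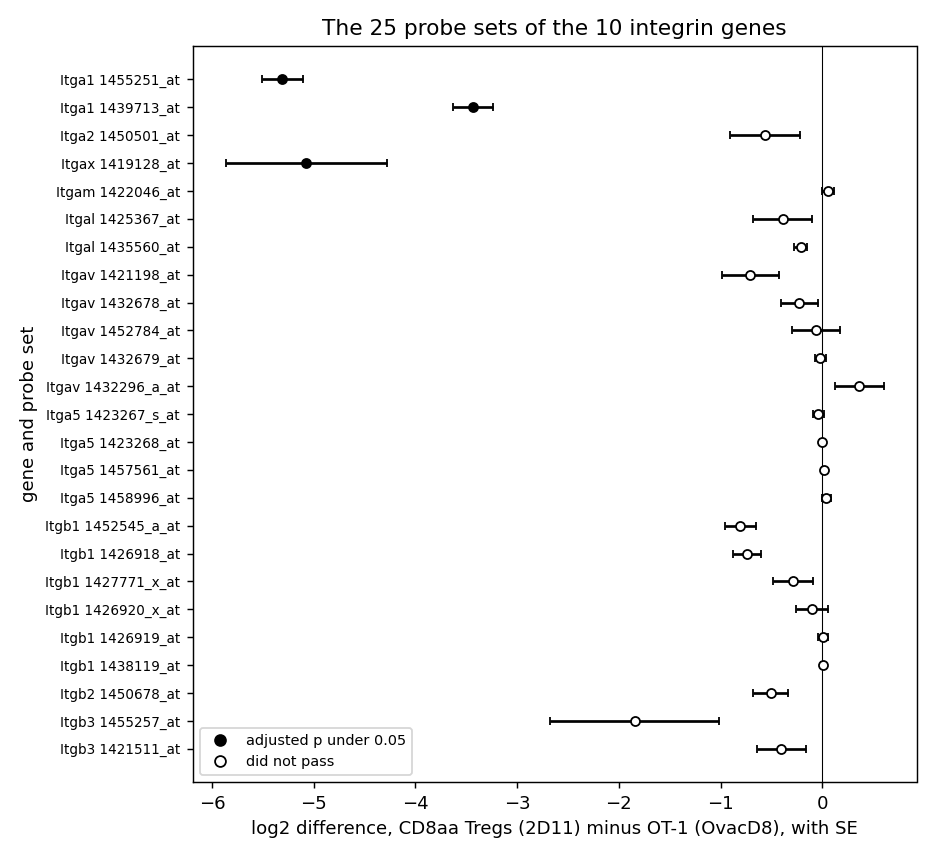
Log2 difference of CD8aa Tregs (2D11) minus OT-1 (OvacD8) for the 25 probe sets, with the standard error of the limma fit; filled points had an adjusted p under 0.05. Both Itga1 probe sets and that of Itgax lie between -5.31 and -3.43, and 22 probe sets did not pass.

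The RGD-binding alpha chains had 9 probe sets, and 0 passed (limma, against 4.06% of all probe sets). At an unadjusted p under 0.05 there were also 0, against 16% of all. The 5 probe sets of Itgav, encoding alphaV, disagreed. On 1421198_at it read 0.011, -0.17 and -0.17 in 2D11, against -0.011, 0.96 and 0.83 in OvacD8. Here OvacD8-1 lay within the 2D11 values, and the difference was -0.71 ± 0.28 (adjusted p = 0.330). On 1452784_at OvacD8-1 was the lowest of the 6 arrays, with -0.058, -0.049 and 0.049 in 2D11, against -0.47, 0.34 and 0.25 in OvacD8 (-0.059 ± 0.23, adjusted p = 0.942). Without OvacD8-1 both were lower in 2D11, with differences of -1.01 (adjusted p = 0.00855) and -0.31 (adjusted p = 0.0392). Against OvacD8-1 alone, in the fit with the control term, the value on 1452784_at was 0.45, the opposite sign (adjusted p = 0.0466, with the spread taken from the other 5 arrays). The other 3 Itgav probe sets gave differences from -0.23 to 0.36. Itga5, encoding the fibronectin-binding alpha5, had 4 probe sets with differences from -0.041 to 0.039, and its values lay between -0.049 and 0.16 on all arrays.

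The beta chains had 9 probe sets, and 0 passed (limma, against 4.06% of all probe sets). At an unadjusted p under 0.05 there were 3, all lower in 2D11, against 16% of all in either direction. Itgb1, the partner of alpha1, alpha2 and alpha5, had 6 of the 9. On 1452545_a_at it read -0.19, -0.60 and -0.49 in 2D11, against 0.19, 0.60 and 0.35 in OvacD8 (-0.81 ± 0.15, 1.75-fold; adjusted p = 0.0687). On 1426918_at it read -0.24, -0.72 and -0.37 in 2D11, against 0.24, 0.38 and 0.28 in OvacD8 (-0.74 ± 0.14, 1.67-fold; adjusted p = 0.0641). The groups did not overlap on either, with 2D11 below, yet both missed the threshold over all probe sets. The other 4 Itgb1 probe sets overlapped between the groups, with differences from -0.29 to 0.0047.

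Itgb2 encodes CD18, the partner of alphaL, alphaM and alphaX. Probe set 1450678_at read -0.11, -0.13 and -0.035 in 2D11, against 0.035, 0.61 and 0.60 in OvacD8. The groups did not overlap, but OvacD8-1 lay nearer to 2D11 than to the other OvacD8 arrays. The difference of -0.51 ± 0.17 did not pass (limma, adjusted p = 0.257), and it did without OvacD8-1 (-0.70, adjusted p = 0.00327). Itgb3, the beta3 chain that pairs with alphaV and, on platelets, with alphaIIb, had the third-widest range of the 10 genes. On 1455257_at it read -0.050, 0.050 and -0.39 in 2D11, against -0.095, 2.52 and 2.72 in OvacD8. OvacD8-1 lay within the 2D11 values while OvacD8-2 and OvacD8-3 stood more than 2 above them. The difference over all arrays was -1.85 ± 0.83 (adjusted p = 0.392), without OvacD8-1 it was -2.75 (adjusted p = 0.00450), and with the control term it was -0.037 (adjusted p = 1.00). The second Itgb3 probe set, 1421511_at, gave -0.40 ± 0.24 (adjusted p = 0.566).

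Without OvacD8-1, 8 of the 25 integrin probe sets (32.0%), of 6 genes, were lower in 2D11 and 0 were higher, against 10.6% of all probe sets (5.8% lower and 4.8% higher). Group and control probe sets then divide the arrays alike and cannot be told apart. Beside Itga1 and Itgax, the genes passing there were Itgav, Itgb1, Itgb2 and Itgb3. With the control term, which sets 2D11 against OvacD8-1 alone, 2 integrin probe sets passed with 2D11 lower, both of Itga1, and 1 with 2D11 higher, of Itgav, against 5.24% of all (3.42% lower and 1.83% higher).

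On 5 integrin probe sets (20.0%), against 3.1% of all, OvacD8-2 and OvacD8-3 both lay at least 0.5 above each of the other 4 arrays, a limit chosen after the values were seen. These were the probe sets of Itgax and Itgb2, 1455251_at of Itga1, 1421198_at of Itgav and 1455257_at of Itgb3. On 1455251_at of Itga1 the 2D11 mean lay 4.87 below OvacD8-1 and 5.53 below the mean of OvacD8-2 and OvacD8-3. For Itgax these distances were 3.63 and 5.79, and for Itgb3 they were 0.037 and 2.75. The poly-A controls move with this pattern, and their part in it was not tested.

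**Figure D3:**
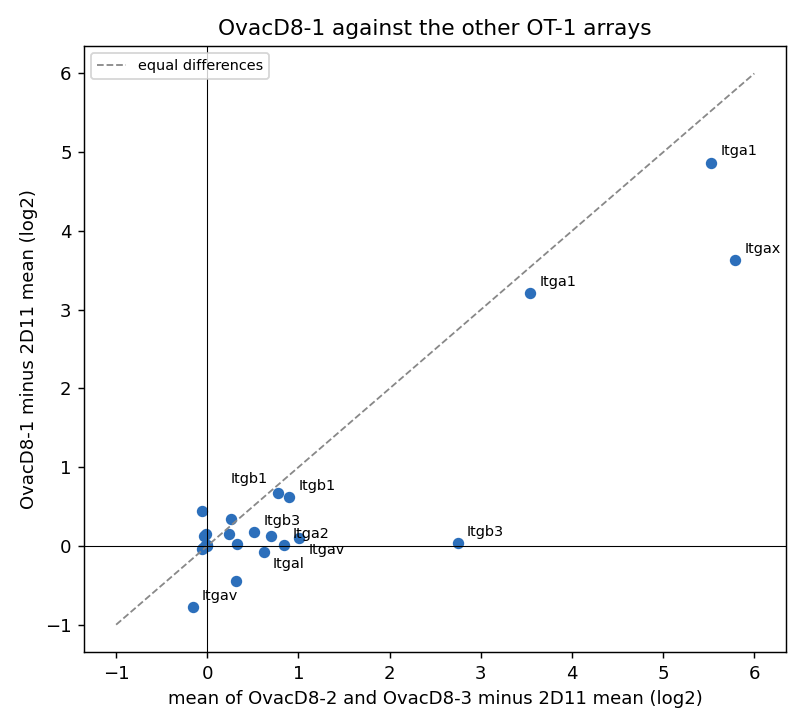
Each point is 1 of the 25 probe sets, labelled with its gene where it ranged over at least 1; the horizontal axis gives the mean of OvacD8-2 and OvacD8-3 minus the 2D11 mean, the vertical axis OvacD8-1 minus the 2D11 mean, both in log2 and both running opposite to the group differences in the text. Itga1 lies near the dashed line of equal differences, Itgax below it at 5.79 and 3.63, and Itgb3 on the zero line at 2.75 and 0.037.

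Itgax and Itgam are also genes of dendritic cells and macrophages, and both lines were grown with antigen-presenting cells, so markers of such cells were read on the same arrays. Of 31 probe sets for 19 genes, 7 for 5 genes stood on OvacD8-1 at least 1 above every other array, a limit also chosen after the values were seen: H2-Aa, H2-Eb1, Csf1r, Mpeg1 and Lyz2. Among all probe sets 0.224% did so, and 0 of the 25 integrin probe sets. Csf1r, the receptor for macrophage colony-stimulating factor, read -0.0018, 0.0018 and 0.0019 in 2D11, against 2.92, -0.015 and -0.0054 in OvacD8 on 1419872_at. Mpeg1, a perforin-like gene of macrophages, read -0.14, -0.28 and 0.79 in 2D11, against 3.27, 0.14 and -0.14 in OvacD8. The list averaged -0.09, -0.08 and -0.03 on the 2D11 arrays, against 0.72, 0.15 and 0.15 on the OvacD8 arrays. Csf1r, 1 of the genes picked for standing high on OvacD8-1, was flat on OvacD8-2 and OvacD8-3, where Itgax was highest. Itgam read 0.012 on OvacD8-1, but it ranged over only 0.21 on all 6 arrays. Because levels were removed, a flat reading of Csf1r or Itgam cannot show whether such cells were present. Cd68, of the same list, followed the order of Itgax (described below), so the contrast depends on the marker read.

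Markers of antigen-presenting cells did not all follow Csf1r. H2-Ab1, a class II MHC chain, was the 1 gene of the list to pass, on 1450648_s_at (3.23% of the list, against 4.06% of all). It was lower in 2D11 (-2.95 ± 0.25, limma, adjusted p = 0.00816). Without OvacD8-1, 5 of the 31 probe sets were lower in 2D11 and 1 was higher, against 5.8% and 4.8% of all. The lower ones were 3 of H2-Ab1 and 1 each of Cd68 (-3.96, adjusted p = 0.000634) and Cd14, the endotoxin co-receptor gene (-0.98, adjusted p = 0.00408), and the higher one was of H2-Aa (0.55, adjusted p = 0.00369). That fit called 8 integrin probe sets lower in 2D11 and 10.6% of all probe sets in either direction. The fit with the control term sets 2D11 against OvacD8-1 alone. Markers picked for standing high on OvacD8-1 lie lower in 2D11 there by that choice. Cd68, a lysosomal protein gene of macrophages that was picked out after its values were seen, read -0.71, -0.51 and -0.48 in 2D11, against 0.48, 3.34 and 3.44 in OvacD8, and did not pass over all arrays (adjusted p = 0.191). It was high on OvacD8-2 and OvacD8-3, with OvacD8-1 between these and 2D11, as were Itgax and Itgb2. The part of such cells in the integrin values was not tested, and in RNA of a whole culture fewer cells of a type and less RNA per cell cannot be told apart. Of 17 B cell probe sets 0 passed, and of 8 platelet probe sets 0 passed (limma, against 4.06% of all). At an unadjusted p under 0.05 there were 0 and 0, against 16% of all. A range under 0.1 was found for 15 of the 17 and for 5 of the 8, against 34.4% of all. With levels removed, these counts cannot show whether such cells were present. Of 11 NK cell probe sets 1 passed (9.09%, against 4.06% of all). It was of the lectin-like receptor gene Klre1 and was lower in 2D11 (-1.18 ± 0.076, limma, adjusted p = 0.00346).

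**Figure D4:**
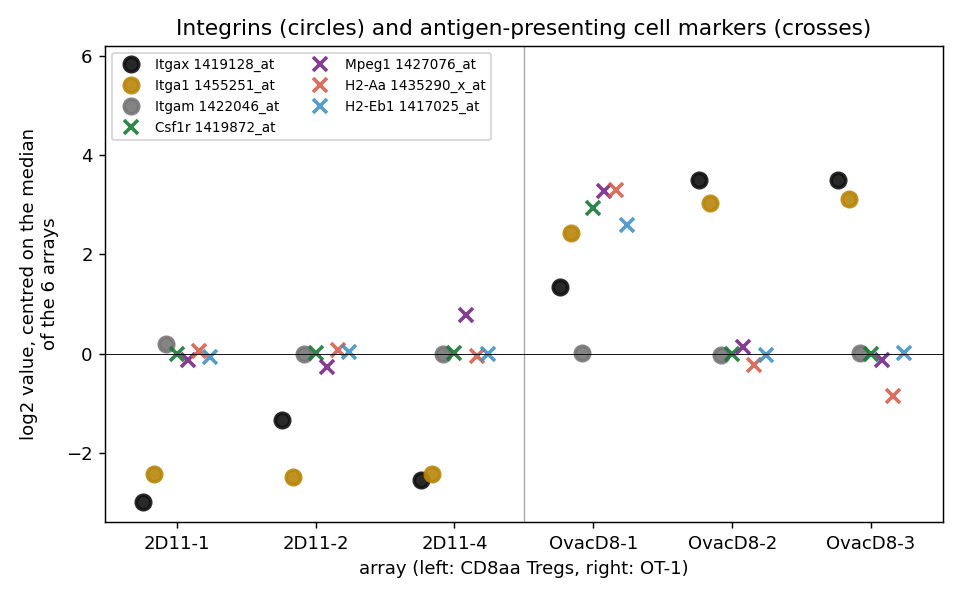
Log2 values, centred on the median of the 6 arrays, of 3 integrin probe sets (circles) and 4 markers of antigen-presenting cells (crosses) on each array, with CD8aa Tregs on the left and OT-1 on the right; points are shifted sideways so that they can be told apart. The 4 markers shown were picked among those that stood high on OvacD8-1 alone, and Cd68 and H2-Ab1 are not shown. The crosses lie at 2.58 to 3.30 on OvacD8-1, and Itgax is highest on OvacD8-2 and OvacD8-3, at 3.50 on each.

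Of 29 probe sets for 14 other integrin subunits, 4 were higher and 1 was lower in 2D11 (17.2%, against 4.06% of all, 2% higher and 2.05% lower), with a median difference of 0.015. Without OvacD8-1, 4 were higher and 3 were lower, where 4.8% of all probe sets were higher and 5.8% were lower. Itga6, the alpha6 chain of laminin receptors, read 1.08, 1.30 and 1.29 in 2D11, against -1.56, -1.08 and -1.51 in OvacD8 on 1422444_at. It was 6.10-fold higher in 2D11 (2.61 ± 0.15; limma, adjusted p = 0.00251), and 1.72 ± 0.091 higher on 1422445_at (adjusted p = 0.00196). Both Itga6 probe sets passed in all 6 fits without 1 array and with the control term. Itga4, the alpha4 chain that binds VCAM-1 and, with beta7, MAdCAM-1, was higher on 2 of its 5 probe sets, by 1.63 ± 0.19 on 1456498_at (adjusted p = 0.0197) and 0.54 ± 0.062 on 1436037_at (adjusted p = 0.0179). Among the 6 fits the first call held without OvacD8-1 and without OvacD8-3, and the second only without OvacD8-1, with adjusted p up to 0.0845 and 0.0794, and the other 3 Itga4 probe sets ran from -0.00026 to 0.67. With the control term the call on 1456498_at ended (adjusted p = 0.0828), and 1427615_at gave 1.00 (adjusted p = 0.0149), where it gave 0.29 over all arrays.

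Itgb5, a beta chain that pairs with alphaV, was lower in 2D11 on 1 of its 4 probe sets (1456195_x_at, -0.69 ± 0.11; limma, adjusted p = 0.0412), and the others lay at -0.93, -1.14 and -1.68 without passing. Among the 6 fits the passing call held only without OvacD8-1 (adjusted p up to 0.155 in the rest), and it ended with the control term (adjusted p = 0.0705). Without OvacD8-1 Itgb5 was also lower on 1417533_a_at (-1.68, adjusted p = 0.000634) and 1417534_at (-1.09, adjusted p = 0.0152). Itgae and Itgb7 were picked out after their values were seen. Itgae, the alphaE chain of CD103 that binds E-cadherin, did not pass on either probe set (-0.24 and -0.28). Itgb7, the partner of alpha4 and alphaE, read -0.0043, 0.0043 and -0.12 in 2D11, against -2.22, 0.076 and 0.071 in OvacD8. It was low on OvacD8-1 alone, and the difference of 0.65 ± 0.69 did not pass (adjusted p = 0.796). Without OvacD8-1 the Itgb7 difference was -0.11 (adjusted p = 0.308), and with the control term, against OvacD8-1 alone, it was 2.18 (adjusted p = 0.00161).

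**Figure D5:**
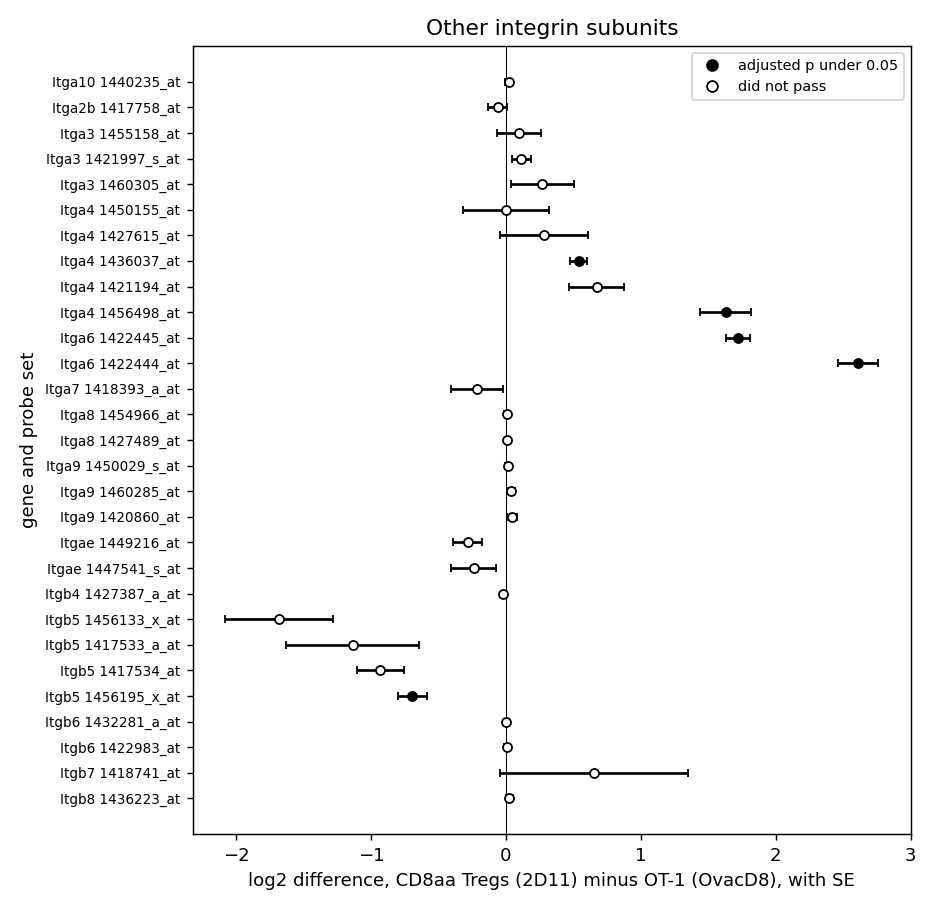
Log2 difference of CD8aa Tregs (2D11) minus OT-1 (OvacD8), with the standard error of the limma fit, for the 29 probe sets of 14 other integrin subunits; filled points had an adjusted p under 0.05. Itga6 and Itga4 hold the filled points to the right, up to 2.61, and Itgb5 the one to the left.

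Of 98 probe sets for 38 genes that activate integrins or link them to actin, 3 were higher and 4 were lower in 2D11. These were 7.14%, against 4.06% of all probe sets. At an unadjusted p under 0.05 (limma) there were 32 of the 98, against 16% of all probe sets. Zyx, the focal adhesion protein zyxin, was lower on 1417240_at (-2.53 ± 0.23; limma, adjusted p = 0.00942) and on 1438552_x_at (-1.40 ± 0.23, adjusted p = 0.0499). Pxn, the adaptor paxillin, was lower on 1424027_at (-0.56 ± 0.084), and Ptk2b, the focal adhesion family kinase Pyk2, on 1434653_at (-0.26 ± 0.041). Fyb, the adaptor ADAP that couples the T cell receptor to integrins, was higher by 0.86 ± 0.11 and 0.41 ± 0.045. Fermt3, the leukocyte kindlin, was higher by 0.25 ± 0.034 on 1 of its 4 probe sets and was picked out after its values were seen. Among the 6 fits without 1 array, the calls of Pxn, Ptk2b, Fermt3 and the larger Fyb value held only without OvacD8-1, with adjusted p up to 0.138, 0.152, 0.118 and 0.111 in the rest. That of Zyx 1438552_x_at held only without 2D11-1 (up to 0.177), and that of 1417240_at ended without 2D11-1 and without OvacD8-2 (up to 0.0565). The smaller Fyb value held without OvacD8-1 and without OvacD8-2 (up to 0.0688 in the rest). The calls of Zyx 1438552_x_at, Pxn, Ptk2b, Fermt3 and the smaller Fyb value ended with the control term, at adjusted p of 0.193, 0.103, 0.0545, 0.0721 and 0.0553.

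Of 50 probe sets for 26 integrin ligands, among them genes of ICAMs, fibronectin and collagens, 0 passed (limma, against 4.06% of all). At an unadjusted p under 0.05 there were 0, against 16% of all. A range under 0.1 was found for 31 of the 50, for 3 of the 25 integrin probe sets (12.0%) and for 34.4% of all. Among genes of tissue residency, where Itga1 is often used as a marker, 0 of 10 probe sets passed (limma, against 4.06% of all). At an unadjusted p under 0.05 there were 4 of the 10, against 16% of all. Without OvacD8-1, 6 of the 10 were lower in 2D11, where 5.8% of all probe sets were lower. With the control term 1 had 2D11 above OvacD8-1, that of the activation marker gene Cd69 on 1428735_at (0.45, adjusted p = 0.0192), which without OvacD8-1 was lower (-2.44, adjusted p = 0.000267). Among 4 genes of recirculation, 1 of 4 probe sets passed (limma, 25%, against 4.06% of all). It was of S1pr1, which encodes a sphingosine-1-phosphate receptor, and was lower in 2D11 (-3.59 ± 0.33, adjusted p = 0.00990). That call ended without 2D11-1 and without OvacD8-2 (up to 0.0576).

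The genes whose values lay nearest to those of Itga1 1455251_at, by the root-mean-square difference over the 6 arrays, were Xdh (0.196), Tm6sf1 (0.240), Srgap3 (0.274), Trim12a (0.306) and a probe set listed under Mir1931 (0.323). For Itgax they were Basp1 (0.565), Errfi1 (0.611), Cd244a (0.640), Slamf7 (0.648) and Xdh (0.685). Xdh, encoding xanthine dehydrogenase, was near to both, and read -2.40, -2.48 and -2.39 in 2D11, against 2.39, 3.31 and 3.52 in OvacD8. These likenesses rest on 6 arrays that share a 2-group design.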

How the data were processed

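RNA of mouse T cell cultures was amplified and labelled with biotin for 6 arrays of 45101 probe sets each, per the labels' protocols. The values are log2 signals that the authors made with RMA, per the submitters' processing notes, which give no version, and deposited. The base is not stated; log2 was assumed because the widest probe set spans 11.4, more than a natural log of a 16-bit range (11.1). The deposited values are centred: each probe set has a median over the 6 arrays within 5e-07 of 0. RMA draws dim probe sets together, so differences that reach background are understated.

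Groups and replicate numbers came from the titles. After 64 array control probe sets were left out, 45037 were fitted with limma 3.58.1 in R 4.3.3 (lmFit, eBayes, two-sided, prior df 0.875), adjusted by Benjamini-Hochberg; an adjusted p under 0.05 passed. The platform table gave 1 symbol for 34945 probe sets, several for 932, and did not list 9160. On simulated arrays of this comparison (45037 probe sets) the fit called 46 of 100 probe sets changed by 1, 85 of 100 changed by 2 and 7 of 44837 unchanged. Changes were placed in probe sets that ranged over at least 0.1. The simulated noise was independent and of equal spread in both groups. No simulated array stood apart as OvacD8-1 did, so these rates may not hold for the real arrays. Array values were given for each member probe set that passed and, for a member with none, its widest-ranging one; the other member probe sets were counted or given by range. Up to 4 passing genes per list by size and the 5 nearest genes of Itgax and of Itga1 were named. Further member probe sets (of Itgal, Itgav, Itgb1) and genes named with no call were picked out after their values were seen. Members, lists and tests were chosen with earlier results of these data known. Alternatives were leaving out each array, a replicate block, 2 other scalings, the spike-in control term, array weights (estimated gene by gene, a method chosen after the default did not converge), robust variances, a range filter and gene means. Precision is limited by 3 arrays per group.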

Additional observations from a re-analysis of the deposited data

How the results depend on the processing

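Over the 6 fits without 1 array, the count of the 25 integrin probe sets that passed ran from 2 to 8, of all probe sets from 811 to 4773, of the other integrin subunits from 2 to 7, of the activation and adaptor genes from 1 to 19 and of the ligands from 0 to 1; each highest count was without OvacD8-1. The replicate numbers 1 and 2 recur in both groups. Deviations from the group means correlated at -0.03 and 0.21 for them, and from -0.18 to 0.21 over all pairings between the groups. With so few arrays per group these values cannot tell whether arrays of the same number share more than the number. With the replicate number as a block, 229 probe sets passed, 1 of other subunits and 1 of adaptors, and Itga1 1439713_at missed the threshold (-3.56, adjusted p = 0.0779). With the spike-in control term, 4 adaptor probe sets and 1 of ligands passed. Array weights gave 6 integrin, 8 other subunit, 21 adaptor and 4584 probe sets in all, and a range of at least 0.1 gave 5 integrin probe sets and 2962 in all. With the mean of the probe sets of a gene, 2 other subunits, 2 adaptors and 1214 genes passed. The cause of these moves was not tested, except that the block fit compares fewer arrays and the last 2 settings test fewer features.

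Differences changed sign for Itgam (-0.011 without 2D11-1, range -0.011 to 0.090), for Itga5 1423267_s_at (0.016 without OvacD8-1, range -0.078 to 0.016, and 0.0032 as a gene mean) and for Itgal 1425367_at (0.074 with the spike-in control term); none of these had passed. Itgax also missed the threshold after subtraction of array medians (limma, adjusted p = 0.0540) and with robust variances (adjusted p = 0.0505). It passed in 4 of the 7 other settings fitted per probe set. These were quantile normalization (adjusted p = 0.0279), array weights (0.00842), the range filter (0.0107) and the replicate block (0.0451). Itgb1 1452545_a_at passed after quantile normalization (-0.84, adjusted p = 0.0316), without OvacD8-1, with array weights and with the range filter. Itga1 1455251_at passed in the 6 fits without 1 array and in the 7 other settings fitted per probe set.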

Other observations

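Genes around Itgax and Itga1 were read in the order of the RefSeq annotation (GRCm38.p6), 4 protein-coding genes to each side, and those named here were picked out after their values were seen. Near Itgax, Pycard, the inflammasome adaptor, read -0.64, -0.59 and -0.73 in 2D11, against 0.59, 2.12 and 1.98 in OvacD8 on 1417346_at (-2.22 ± 0.45, limma, adjusted p = 0.0779), while its other 2 probe sets ranged over less than 0.1. Pelo, a ribosome rescue factor gene, follows Itga1 in this order. The order is by start coordinate only and does not show whether 2 genes overlap. Pelo read -0.25, -0.26 and -0.47 in 2D11, against 1.02, 0.54 and 0.25 in OvacD8 (-0.93 ± 0.21, limma, adjusted p = 0.106). Emb, encoding the cell adhesion protein embigin and 4 genes from Itga1, read 1.06, 0.83 and 0.99 in 2D11, against -0.96, -1.11 and -0.83 in OvacD8 on 1415856_at. It was higher in 2D11 on that probe set (1.92 ± 0.097, adjusted p = 0.00167) and on 1415857_at (1.45 ± 0.20, adjusted p = 0.0287), and did not pass on 1447286_at (1.81, adjusted p = 0.0612). In the 6 fits without 1 array the first call held throughout (adjusted p up to 0.0156), and the second held only without OvacD8-1 (up to 0.109 in the rest).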
